A study of Mus musculus with 22 samples.

Results

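The 46 genes described here lie in or near imprinted domains whose control region carries DNA methylation from the oocyte, or, in the case of Zfp57, encode a protein that protects this methylation in the embryo. They were chosen by symbol, and all 46 were found among the 22592 gene symbols in each of the study's tables. By general knowledge, 20 are expressed mainly from the paternal copy in some tissue, 18 mainly from the maternal copy, and 7 from either copy by tissue or isoform. They fall into 16 domains, of which the Kcnq1 domain holds 10 genes and the Snrpn domain 7, and 19 of the genes were counted as at a control region. These start at or within it, except Igf2r, which overlaps Airn, the gene that starts there. Reads were not separated by allele, so each value below is the sum of both copies.

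Genomic imprinting makes the activity of a gene depend on the parent that passed it on. In the growing mouse oocyte, DNMT3A with its partner DNMT3L methylates control regions that are crossed by transcription, and SETD2, which trimethylates lysine 36 of histone H3, marks the bodies of transcribed genes. After fertilization the methylated maternal copy is usually silent, so genes such as Snrpn, Peg3, Mest, Impact, Mcts2 and Zrsr1 are read from the paternal copy, and noncoding RNAs such as Airn and Kcnq1ot1 silence neighbours on that copy.

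The data were RNA-seq libraries of mouse oocytes and embryos, made with Smart-seq2, a method for very small amounts of RNA. The study asked, among other things, whether the transcription of oocytes without Setd2 carries over into the embryo. Growing oocytes of 20 to 30 μm from females of postnatal day 7 were Setd2+/- in the control, which thus carries a mutant allele, and Setd2-/- in the knockout. Full-grown oocytes, zygotes and 48 h embryos had the genotypes Setd2_Con and Setd2_KO, and came from hormone-primed females 8 weeks old, with zygotes taken 30 h after hCG. At 48 h the controls were 2-cell embryos and the knockouts 1-cell embryos. The 8-cell embryos came from spindle transfer, in which the spindle with its chromosomes was moved between oocytes of control and Setd2mNull females before sperm injection, and their genotypes were Setd2+/- and Setd2-/-. The labels do not say whether that genotype is the one of the spindle or of the cytoplasm, so these libraries are called by their label. Each of these 10 groups had 2 libraries, and full-grown oocytes Dnmt3l_Con and Dnmt3l_KO had 1 library each. The labels on the values of that pair carry the word merge and unlike replicate numbers, which are not explained. No Cre driver, number of cells per library or genotype of the father is given, and nothing says that the libraries of a group came from separate females. The p-values therefore measure only the spread between libraries, which may be technical.

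Promoter sequence is shown for 4 paternally expressed genes because their starts lie at control regions, where the factor ZFP57 is known to act. ZFP57 recognizes the hexanucleotide TGCCGC when its CpG is methylated. The sequences are the 250 bases before the start, from RefSeq on GRCm38.p6, read 5′ to 3′ on the strand of the gene, with TGCCGC or its reverse complement GCGGCA in capitals. They lie at chr2:152686898-152687147 on the plus strand (Mcts2), chr6:30737800-30738049 on the plus strand (Mest), chr10:13090582-13090831 on the plus strand (Plagl1) and chr7:6730420-6730669 on the minus strand (Peg3).
Mcts2: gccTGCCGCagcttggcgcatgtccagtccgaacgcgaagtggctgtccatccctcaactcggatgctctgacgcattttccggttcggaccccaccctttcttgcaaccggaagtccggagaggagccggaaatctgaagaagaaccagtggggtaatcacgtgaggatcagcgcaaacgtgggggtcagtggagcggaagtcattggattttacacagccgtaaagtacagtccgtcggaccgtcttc
Mest: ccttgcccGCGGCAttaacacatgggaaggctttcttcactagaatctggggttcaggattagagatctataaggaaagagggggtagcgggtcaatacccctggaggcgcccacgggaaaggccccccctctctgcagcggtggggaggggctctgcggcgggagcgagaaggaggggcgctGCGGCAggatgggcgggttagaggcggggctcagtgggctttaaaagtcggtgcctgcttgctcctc
Plagl1: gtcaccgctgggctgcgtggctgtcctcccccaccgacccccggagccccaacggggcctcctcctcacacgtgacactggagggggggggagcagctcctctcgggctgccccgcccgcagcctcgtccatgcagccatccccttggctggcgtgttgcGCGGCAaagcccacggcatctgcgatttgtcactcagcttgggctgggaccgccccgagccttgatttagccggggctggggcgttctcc
Peg3: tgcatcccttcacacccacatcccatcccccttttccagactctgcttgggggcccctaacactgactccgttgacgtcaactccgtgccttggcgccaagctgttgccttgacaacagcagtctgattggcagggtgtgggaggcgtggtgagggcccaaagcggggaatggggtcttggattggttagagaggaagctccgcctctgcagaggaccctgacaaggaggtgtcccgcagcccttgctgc
The hexanucleotide occurred 1 time before the starts of Mcts2 and Plagl1, 2 times before the printed start of Mest and 0 times before that of Peg3. Mest had more than 1 listed start, and a start with the most matches was printed. Another Mest start, with its window at chr6:30733256-30733555, had 0 matches. Windows of 300 bases, which add 50 bases after the start, were found for 38 of the 46 genes. The letters were present on either strand in a window of 14 of the 38 genes (36.84%), against 13.05% of all 27025 genes with a window. Snrpn and Snurf share a matching window and both count here. By distinct window the share was 25.45% of 55, against 11.61% of all 32851 windows. The windows of the imprinted genes also held more CpG, with a median of 15 against 7, and the hexanucleotide itself contains a CpG. A match is a run of letters and not a measured site, and its absence from a window says nothing about the factor.

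Values are FPKM, fragments per kilobase of transcript, scaled to the mapped fragments of the library. Depth was not stated, and the smallest steps between low values put the libraries at an estimated 2.93 to 20.4 M fragments (M for mega), with zygotes at 2.93 to 3.14, 48 h embryos at 2.93 to 4.44 and full-grown oocytes at 7.73 to 20.4. Setd2 in full-grown oocytes was 4.75 and 4.35 FPKM in controls and 0.968 and 0.927 in the knockout (limma adjusted p = 0.0102). In zygotes it was 12.1 and 8.85 against 1.30 and 1.73 (limma adjusted p = 0.000208), and at 48 h 53.2 and 43.0 against 1.42 and 1.74 (limma adjusted p = 7.44e-08). The knockout was thus visible in the RNA of these 3 stages. In day 7 oocytes Setd2 was 4.33 and 6.68 against 3.67 and 3.21 (limma adjusted p = 0.799) and in 8-cell embryos 18.2 and 17.1 against 15.4 and 18.1 (limma adjusted p = 0.934), so its RNA did not separate the genotypes there. The oocyte marker Zp3, which encodes an egg coat protein, was at 738 FPKM or more in each of the 10 oocyte libraries.

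Of the 46 genes, 40 reached 1 FPKM in at least 1 of the 22 libraries, and between 19 and 28 did so in any 1 library. Magel2, Slc22a2, Nap1l5, Peg10, Peg13 and Kcnq1ot1 stayed under 1 FPKM in all 22. Zfp57, the zinc finger protein that keeps imprints, was the highest of the 46 in full-grown oocytes, at 1376 and 1345 FPKM in controls, and it was 2111 and 2396 in control zygotes. Snrpn, which encodes a protein of the splicing machinery, was the highest in 8-cell embryos.

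**Figure D1:**
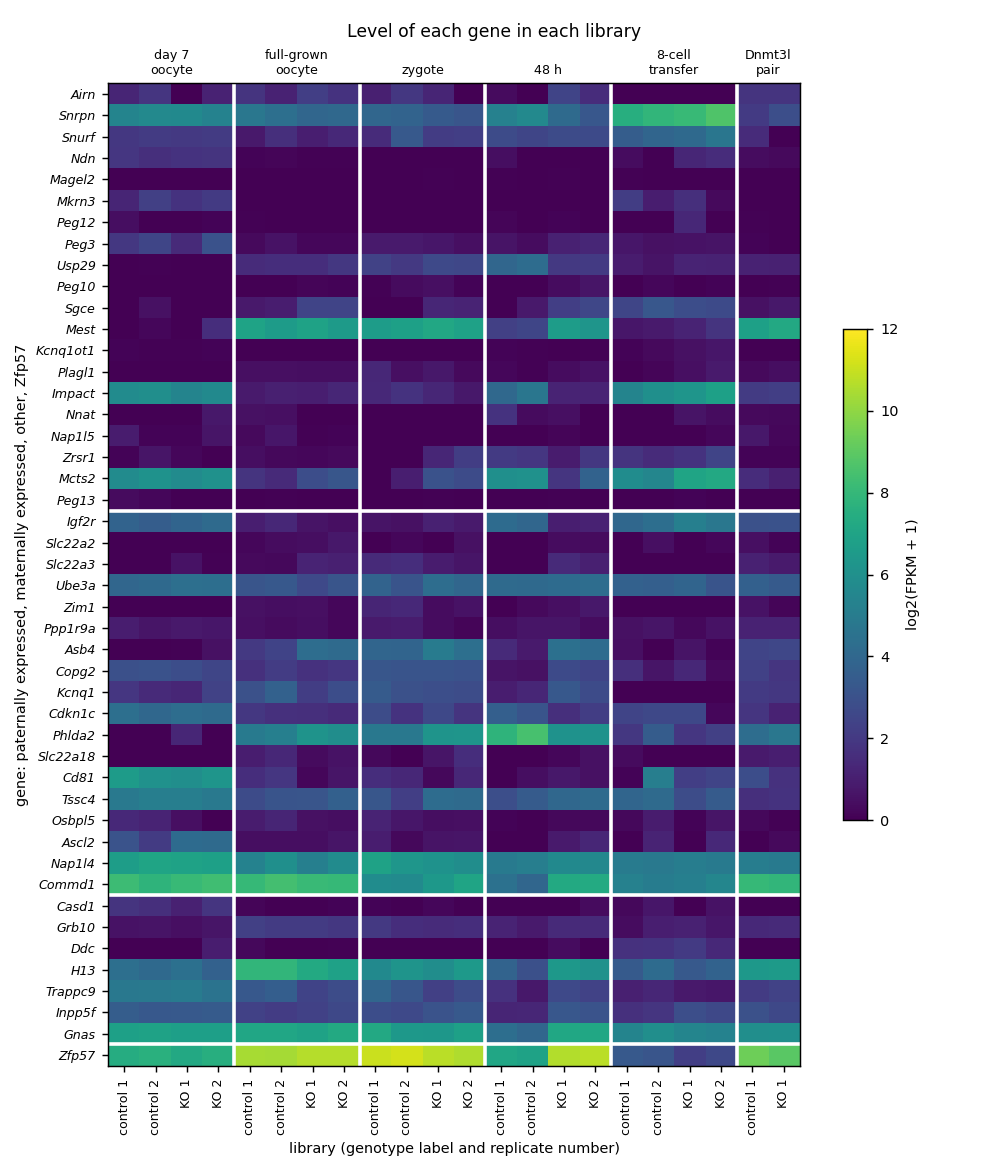
Level of the 46 genes (rows) in each of the 22 libraries (columns), as log2(FPKM + 1) on the color scale. Zfp57 is bright in full-grown oocytes and zygotes, while Mcts2, Impact and Igf2r are dark there and brighter in day 7 oocytes, control 2-cell embryos and 8-cell embryos.

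Changes below are differences of log2(FPKM + 1) relative to the median of all genes tested in the same comparison, given as the change ± its standard error, with p-values from limma adjusted over all genes tested. A gene was tested where at least 2 libraries of its table had 1 FPKM or more, and it was said to rise or fall at an adjusted p under 0.05. The p-values test the change as fitted, before the median was subtracted, so a small relative change can carry a low p. A test of the relative change itself was added after these results were seen, and it is given below where it alters a call. With 2 libraries against 2, an exact permutation test cannot give a p under 0.33, so each call rests on variance shared between genes.

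In control embryos 8 of the 31 genes tested rose from the zygote to the 2-cell stage and 17 fell, while among all genes tested 33.4% rose and 42.7% fell. Among the paternally expressed genes tested 5 of 10 rose and 2 fell, and among the maternally expressed genes 3 of 15 rose and 9 fell. Mcts2, a retrogene copy of the translation factor gene Mcts1, was 0 and 0.982 FPKM in zygotes and 62.8 and 65.5 in 2-cell embryos (5.87 ± 0.53, limma adjusted p = 2.31e-06). Impact, which restrains the amino acid sensor GCN2, was 1.62 and 2.43 and then 15.5 and 24.8 (3.12 ± 0.30, limma adjusted p = 5.65e-06). The stages did not overlap for either gene. Snrpn went from 14.7 and 13.1 to 37.4 and 48.8, Usp29, a deubiquitinase gene of the Peg3 domain, from 4.10 and 2.93 to 14.6 and 18.1, and Zrsr1, a retrogene copy of the splicing factor gene Zrsr2, from 0 and 0 to 3.09 and 2.76. All 3 of these rose.

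The maternally expressed genes that rose to the 2-cell stage were Igf2r, Phlda2 and Cdkn1c. Igf2r, the receptor that clears the growth factor IGF2, was 0.571 and 0.466 FPKM in zygotes and 17.5 and 14.5 in 2-cell embryos (3.82 ± 0.22, limma adjusted p = 1.08e-07). Phlda2, which restrains placental growth, was 26.5 and 27.2 and then 221 and 363 (3.69 ± 0.24, limma adjusted p = 2.20e-07). Cdkn1c, a brake on the cell cycle, was 5.99 and 2.34 and then 11.2 and 7.76 (1.44 ± 0.40, limma adjusted p = 0.0251), and this call was lost without control zygote replicate 2 (adjusted p = 0.231) or control 48 h replicate 1 (adjusted p = 0.131). The genes that fell were Mest, Zfp57, Asb4, Gnas, H13, Copg2, Trappc9, Kcnq1, Nap1l4, Commd1, Inpp5f, Slc22a3, Airn, Cd81, Zim1, Osbpl5 and Grb10. Of these, Zim1 passed the filter on low values only through control zygotes, where it was high. Osbpl5 passed it only through control oocytes and control zygotes, and Slc22a3 only through knockout oocytes, control zygotes and knockout 48 h embryos. Mest, which encodes a hydrolase-like protein, was 97.4 and 112 in zygotes and 3.82 and 4.66 in 2-cell embryos (-4.00 ± 0.24, limma adjusted p = 3.40e-08), and Zfp57 2111 and 2396 and then 138 and 119 (-3.78 ± 0.17, limma adjusted p = 7.78e-09). The levels of the 2 stages were far apart for both. The calls of Airn, Cd81 and Grb10 were each lost when at least 1 control library was left out. By the test of the relative change 10 genes rose and 15 fell, with 37.7% and 35.8% of all genes. Airn (adjusted p = 0.0745) and Grb10 (adjusted p = 0.144) were then not called, and Ube3a (adjusted p = 0.00708) and Sgce (adjusted p = 0.0238) rose. The median of all genes tested was -0.34 before it was set to 0.

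From control full-grown oocytes to control zygotes 6 of 31 genes rose and 4 fell, while among all genes tested 18.5% rose and 24.0% fell, and after quantile normalization the counts were 10 and 4. Usp29 also rose by the test of the relative change (limma adjusted p = 0.0396). Asb4, Copg2, Slc22a3, Nap1l4, Zim1 and Zfp57 rose, and Commd1, H13, Slc22a18 and Sgce fell. Zim1 passed the filter on low values only through control zygotes, where it was high. Of the compared groups, Slc22a3 likewise reached 1 FPKM only in control zygotes and Slc22a18 only in control oocytes, where they were high. Commd1, a regulator of copper handling, was 261 and 336 FPKM in oocytes and 56.6 and 52.0 in zygotes (-2.37 ± 0.25, limma adjusted p = 5.91e-05). H13, a signal peptide peptidase, was 234 and 238 and then 50.4 and 73.4 (-1.88 ± 0.32, limma adjusted p = 0.000866). These 2 genes hold the retrogenes Zrsr1 and Mcts2 within their bodies. Sgce was listed at 0 in both zygote libraries, a call that was lost when any 1 of the 4 libraries was left out, and Nap1l4, Slc22a18 and Zfp57 were each lost without at least 1 library.

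In day 7 growing oocytes none of the 25 genes tested rose or fell, while 0.0834% of all genes tested did, and 1 of the 25, against 8.04% of all genes, had an unadjusted p under 0.05 in limma. That gene was Ascl2, a transcription factor of the trophoblast lineage, at 7.34 and 3.23 FPKM in controls and 17.3 and 16.9 in the knockout (limma adjusted p = 0.228). Mcts2 was 53.7 and 67.7 against 55.1 and 66.5 FPKM (limma adjusted p = 0.997), Snrpn 42.3 and 49.7 against 51.5 and 38.5, and Impact 53.9 and 59.5 against 41.7 and 51.3 (limma adjusted p = 0.77). The groups overlapped for Mcts2 and Snrpn, and both knockout values of Impact lay below both controls. In this comparison 17.8% of all symbols with a value lay lower without overlap and 13.9% higher. Igf2r was 12.9 and 10.7 against 13.8 and 16.8, its antisense RNA Airn 1.37 and 2.60 against 0 and 1.22, and Peg3, a zinc finger protein, 2.82 and 4.78 against 1.68 and 7.08. Gnas, a G protein subunit, was 113 and 119 against 108 and 109, Inpp5f, a lipid phosphatase, 10.5 and 8.99 against 9.07 and 9.73, and Snurf 2.79 and 3.18 against 2.93 and 3.27. Of these 6 the groups overlapped for Peg3, Inpp5f and Snurf. Sgce, Zrsr1, Grb10, Plagl1, Nnat and the other genes at control regions, apart from Mest, were under 1 FPKM in all 4 libraries, and Mest reached 2.01 in 1 knockout library only.

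In full-grown oocytes 4 of 31 genes tested rose in the Setd2 knockout and 1 fell, while among all genes tested 2.02% rose and 4.89% fell. Asb4, Sgce, Phlda2 and Slc22a3 rose and Cd81 fell, and after median-ratio rescaling, quantile normalization or by the test of the relative change the counts were 4 and 0. By that test 2.90% of all genes rose and 2.02% fell, so that the balance of all genes turned. The median change of the 31 genes was 0.08, beside 0 for all genes, which was -0.19 before it was set to 0. Asb4, an adaptor of ubiquitin ligases, was 3.02 and 4.34 FPKM in controls and 18.7 and 16.9 in the knockout (2.21 ± 0.29, limma adjusted p = 0.00466). Sgce, the epsilon-sarcoglycan, was 0.794 and 0.918 against 4.56 and 4.47 (1.76 ± 0.27, limma adjusted p = 0.011). Both are in the Peg10 domain, and their groups were far apart, while Peg10 itself was 0 and 0 against 0.110 and 0.0890 FPKM. Phlda2 was 30.0 and 34.9 against 71.1 and 57.6 (1.15 ± 0.24, limma adjusted p = 0.0364). Slc22a3, an organic cation transporter of the Igf2r domain, was 0.234 and 0.206 against 1.33 and 1.05 (1.03 ± 0.19, limma adjusted p = 0.0299). These groups did not overlap either and Slc22a3 was low in all 4 libraries. Among the stages fitted together, Sgce reached 1 FPKM in knockout libraries only. It thus passed the filter on low values only through the groups where it was high. Slc22a3 likewise passed only through groups where it was high, namely knockout oocytes, control zygotes and knockout 48 h embryos. With any 1 of the 4 libraries left out, between 0 and 1 of the 5 calls remained: Asb4 was kept without control replicate 2 or knockout replicate 2, and lost without control replicate 1 (adjusted p = 0.0543) or knockout replicate 1 (adjusted p = 0.0679).

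Cd81, a tetraspanin found on many cell types, was 1.99 and 2.69 FPKM in controls and 0.156 and 0.608 in the knockout (-1.10 ± 0.33, limma adjusted p = 0.0419), and 2 of 12 alternative settings kept its call, with an adjusted p of 0.0811 by the test of the relative change. Markers of granulosa cells, which surround the oocyte, moved beside it. Of 16 such markers 8 were tested, of which Fshr rose (with Nr5a2 by the test of the relative change) and Inha, Cyp11a1 and Hsd3b1 fell. Inha was 14.8 and 15.1 FPKM in controls and 0.816 and 0.519 in the knockout, and Fshr 0.415 and 0.180 against 9.49 and 8.25. The summed level of the 16 was 41.3 to 44.9 FPKM in controls and 37.0 to 41.9 in the knockout, and Amh and Foxl2, which define the cell type, were under 0.1 FPKM in all 4 libraries. Their part in the fall of Cd81 was not tested, and in bulk libraries fewer cells of a type and less RNA per cell cannot be told apart.

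The other genes at control regions did not pass the test in full-grown oocytes. Mcts2 was 2.53 and 1.71 FPKM in controls and 6.03 and 8.23 in the knockout (1.57 ± 0.53, limma adjusted p = 0.137), groups that did not overlap, and it passed when only these 4 libraries were fitted (adjusted p = 0.00916). Mest was 124 and 96.6 against 119 and 92.4 FPKM, Gnas 138 and 135 against 119 and 157, and Grb10, an adaptor that restrains insulin signalling, 3.86 and 3.26 against 3.20 and 2.88. The groups overlapped for Mest and Gnas, and both knockout values of Grb10 lay below both controls. In this comparison 38.7% of all symbols with a value lay lower without overlap and 17.8% higher. Snrpn was 25.9 and 19.7 against 14.7 and 15.8 (limma adjusted p = 0.289), Igf2r 1.04 and 1.53 against 0.556 and 0.420 (limma adjusted p = 0.12), and Inpp5f 3.99 and 3.41 against 4.01 and 5.09 (limma adjusted p = 0.596). Snrpn and Igf2r were lower and Inpp5f higher in both knockout libraries, without passing. Airn was 2.49 and 1.22 against 3.70 and 2.40, Impact 0.830 and 1.11 against 0.999 and 1.41, Snurf 0.774 and 2.05 against 1.04 and 1.64 and Zrsr1 0.378 and 0.203 against 0.154 and 0.252. The groups overlapped for these 4, and Peg3, Plagl1, Nnat, Nap1l5, Kcnq1ot1 and Peg13 were under 1 FPKM in all 4 libraries.

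In zygotes 7 of 31 genes tested rose in the knockout and 2 fell, while among all genes tested 18.5% rose and 13.1% fell, and after quantile normalization the counts were 7 and 5. Trappc9 also fell by the test of the relative change (limma adjusted p = 0.048). The paternally expressed genes that rose were Mcts2, Zrsr1 and Sgce, and the maternally expressed ones Phlda2, Tssc4, Slc22a18 and Commd1. The median change was 0.02 for the 10 paternally and -0.09 for the 15 maternally expressed genes tested, beside 0 for all genes. Mcts2 was 0 and 0.982 FPKM in controls and 7.18 and 5.71 in the knockout (2.38 ± 0.53, limma adjusted p = 0.00664), and it missed the threshold without control replicate 1 (adjusted p = 0.0563). Zrsr1 was listed at 0 in both controls and at 1.42 and 3.48 in the knockout (limma adjusted p = 0.00396). Sgce was listed at 0 in both controls and at 1.42 and 1.32 in the knockout (limma adjusted p = 0.00612). Both knockout libraries were above both controls for all 3 genes, and the calls of Zrsr1 and Sgce held in all 12 alternatives in which they could be fitted. Sgce, however, passed the filter on low values only through knockout libraries, the groups where it was high.

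Phlda2 was 26.5 and 27.2 FPKM in control zygotes and 74.1 and 74.8 in the knockout (1.42 ± 0.24, limma adjusted p = 0.00149), and this call held in all 13 alternatives. Tssc4 was 8.36 and 3.63 against 17.9 and 16.9 (1.47 ± 0.35, limma adjusted p = 0.00913), with an adjusted p of 0.0621 without control replicate 2. Slc22a18, a membrane transporter, was 0.202 and 0 against 0.612 and 1.95 (0.98 ± 0.27, limma adjusted p = 0.0173), with 0.0935 without the same library. These 3 genes belong to the Kcnq1 domain, and their groups did not overlap. In the same domain Kcnq1, Cd81, Osbpl5 and Nap1l4 were lower in both knockout libraries without passing (limma adjusted p = 0.0789 to 0.449). Nap1l4 was 121 and 78.4 against 68.5 and 58.9 FPKM. Among all symbols with a value, 24.9% lay lower and 28.6% higher without overlap in this comparison. Kcnq1ot1, the noncoding RNA of the domain's control region, was under 0.1 FPKM in all 4 libraries. Commd1 was 56.6 and 52.0 against 83.5 and 129 (0.91 ± 0.25, limma adjusted p = 0.0173), and its call was kept with 1 of the 4 libraries left out and lost with any of the other three. Zim1, a zinc finger gene of the Peg3 domain, was 1.35 and 1.59 against 0.322 and 0.512 (-0.82 ± 0.19, limma adjusted p = 0.00838), and Slc22a3 1.67 and 1.94 against 0.887 and 0.598 (-0.70 ± 0.19, limma adjusted p = 0.0205). These 2 genes were lower in both knockout libraries. The call of Zim1 was lost with a pseudocount of 0.1 (limma adjusted p = 0.0676) and when only the compared groups were fitted (limma adjusted p = 0.0873). That of Slc22a3 was lost in the same 2 settings and without control replicate 2 or knockout replicate 2. Among the stages fitted together, Zim1 reached 1 FPKM only in control zygotes. It thus passed the filter on low values only through the group where it was high, and leaving out 1 control zygote library removed it. Slc22a18 reached 1 FPKM only in control oocytes and knockout zygotes, and Osbpl5 only in control oocytes and control zygotes. Slc22a3 reached it only in knockout oocytes, control zygotes and knockout 48 h embryos. For each of these genes, only the zygote group where it was high helped it pass. Oocyte markers moved in the same comparison, 9 of 16 rising and 1 falling, and Zp3 was 166 and 159 FPKM in controls and 1103 and 2534 in the knockout. Their summed level was 11766 to 12482 FPKM in controls and 22117 to 23866 in the knockout, and their part in the changes of the imprinted genes was not tested.

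**Figure D2:**
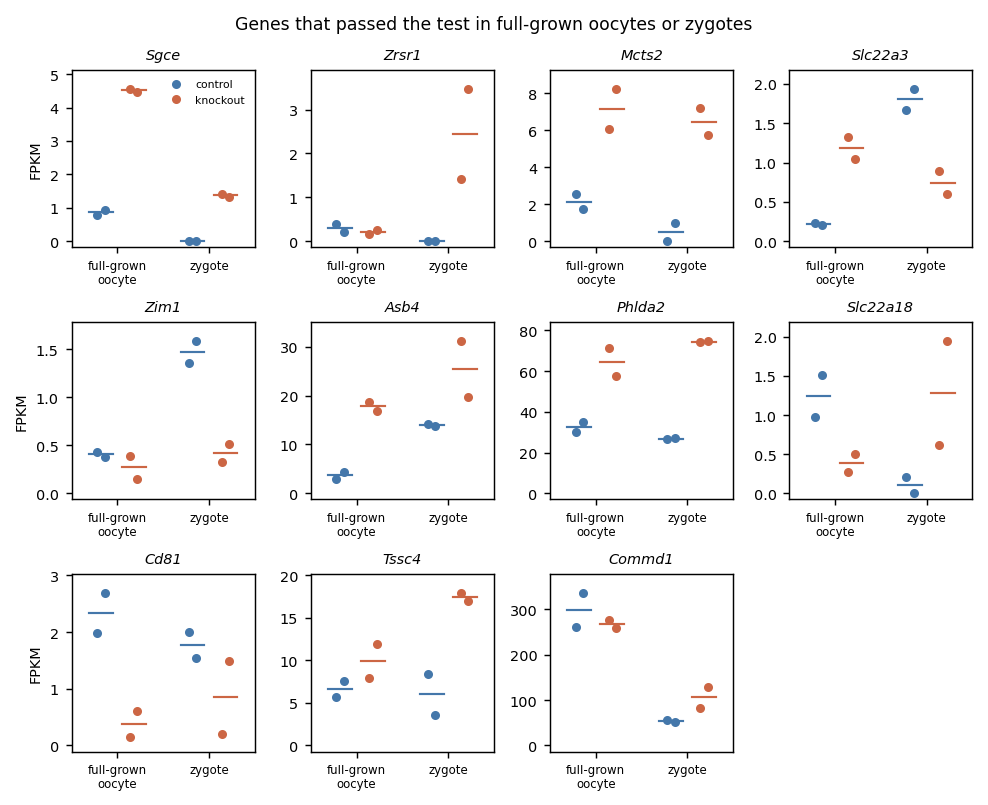
FPKM of the 11 genes that passed the test in full-grown oocytes or zygotes, 1 panel per gene, with points for libraries and bars for the mean of 2 libraries (blue control, red knockout). Phlda2 lies between 26.5 and 34.9 in the controls and between 57.6 and 74.8 in the knockout, while Slc22a3 is higher in knockout oocytes and lower in knockout zygotes.

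The remaining genes at control regions did not pass the test in zygotes. Mest was 97.4 and 112 FPKM in controls and 146 and 115 in the knockout, Snrpn 14.7 and 13.1 against 9.40 and 7.83 (limma adjusted p = 0.124), and Impact 1.62 and 2.43 against 1.48 and 0.698 (limma adjusted p = 0.181). Mest was higher and the other 2 lower in both knockout libraries, as were 28.6% and 24.9% of all symbols with a value. Igf2r was 0.571 and 0.466 against 1.13 and 0.839, Airn 1.10 and 2.82 against 1.36 and 0, and Gnas 151 and 83.4 against 82.0 and 112. Airn and Gnas overlapped between genotypes. Inpp5f was 6.19 and 5.19 against 7.50 and 9.19, Grb10 2.93 and 1.98 against 1.75 and 1.96, and Snurf 1.78 and 9.33 against 3.39 and 3.72. The 2 control values of Snurf lay on either side of both knockout values. Plagl1 was 1.56 and 0.402 against 0.683 and 0.223, and Peg3, Peg10, Nnat, Nap1l5, Kcnq1ot1 and Peg13 were under 1 FPKM in all 4 libraries.

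The knockout effect differed between zygotes and full-grown oocytes for 3 of the 31 genes, against 9.39% of all genes tested. These were Slc22a3 (limma adjusted p = 0.00771), Slc22a18 (limma adjusted p = 0.0205) and Zrsr1 (limma adjusted p = 0.0392). Slc22a3 rose in knockout oocytes and fell in knockout zygotes, and Slc22a18, which rose in knockout zygotes, was 0.976 and 1.51 FPKM in control oocytes and 0.276 and 0.503 in knockout oocytes. Both genes passed the filter on low values only through groups where they were high. For Slc22a18 these were control oocytes and knockout zygotes, and for Slc22a3 knockout oocytes, control zygotes and knockout 48 h embryos. The call of Slc22a3 held in all 15 alternatives, that of Slc22a18 in 10 of 13 and that of Zrsr1 in 5 of 15. By the test of the relative change 5.43% of all genes differed upward and 1.81% downward, Zrsr1 was not called (limma adjusted p = 0.0667) and Zfp57 was (limma adjusted p = 0.0453). For genes that rose at both stages the difference did not pass, with limma adjusted p = 0.422 for Phlda2 and limma adjusted p = 0.66 for Sgce.

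Mcts2 lies within H13 and Zrsr1 within Commd1, and whether the counting used strand is not given in the sources used here, so reads of a retrogene, its host and its parent gene may not be fully separate. In full-grown oocytes H13 was 234 and 238 FPKM in controls and 155 and 117 in the knockout (limma adjusted p = 0.149), and in zygotes 50.4 and 73.4 against 59.0 and 86.6 (limma adjusted p = 0.631). Mcts1, the parent gene of Mcts2, was 4.62 to 4.78 in control and 4.16 to 4.97 in knockout oocytes, and 0 to 0.779 against 0 to 4.60 in zygotes. H13 was thus lower in both knockout oocyte libraries, in which Mcts2 was higher, and the ranges of Mcts1 overlapped. Zrsr2, the parent gene of Zrsr1, was 9.16 to 17.6 FPKM in control zygotes and 7.59 to 8.62 in the knockout, below the controls where Zrsr1 was above them. Kcnq1ot1 likewise lies within Kcnq1, Peg13 within Trappc9 and Snurf within Snrpn, while Mest and Copg2, and Airn and Igf2r, overlap in part.

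**Figure D3:**
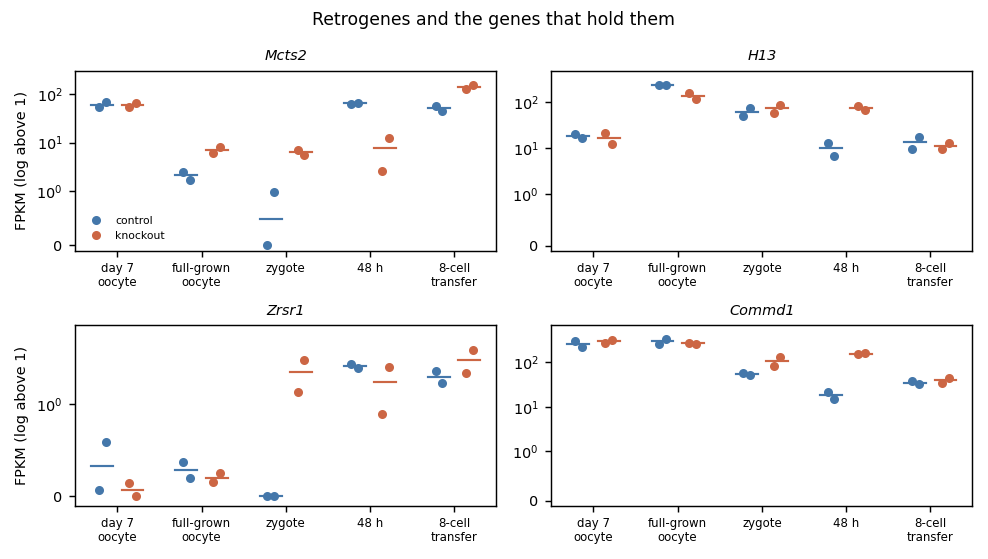
FPKM of the retrogenes Mcts2 and Zrsr1 and of their host genes H13 and Commd1 at 5 stages (axis linear up to 1 and logarithmic above), with points for libraries and bars for the mean of 2. Mcts2 is lowest in control zygotes (0 and 0.982), where H13 is at 50.4 and 73.4.

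At 48 h, 1-cell knockout embryos were compared with 2-cell controls, so genotype and cell stage cannot be told apart. Of 31 genes tested 16 were higher and 7 lower in the knockout, while among all genes tested 43.2% were higher and 30.6% lower. The lower genes were Mcts2, Impact, Igf2r, Usp29, Phlda2, Snrpn and Cdkn1c, and the higher ones Mest, Zfp57, Asb4, Commd1, Gnas, H13, Copg2, Sgce, Inpp5f, Kcnq1, Airn, Trappc9, Slc22a3, Tssc4, Peg3 and Zim1. By the test of the relative change 12 were higher and 8 lower, with 33.0% and 36.5% of all genes, so that the balance of all genes turned. The comparison shares its controls with that of control zygotes and 2-cell embryos. Mcts2 was 62.8 and 65.5 FPKM in controls and 2.61 and 12.7 in the knockout (-3.64 ± 0.53, limma adjusted p = 0.000204), Impact 15.5 and 24.8 against 1.26 and 1.29 (-3.61 ± 0.30, limma adjusted p = 2.37e-06), and Igf2r 17.5 and 14.5 against 0.996 and 1.21 (-3.44 ± 0.22, limma adjusted p = 3.93e-07). Snrpn was 37.4 and 48.8 against 16.8 and 8.60 (-2.17 ± 0.30, limma adjusted p = 0.000267) and Phlda2 221 and 363 against 69.4 and 68.5 (-2.46 ± 0.24, limma adjusted p = 1.44e-05). The groups did not overlap for any of these 5 genes.

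Among the genes that were higher at 48 h, Mest was 3.82 and 4.66 FPKM in controls and 99.0 and 74.6 in the knockout (3.63 ± 0.24, limma adjusted p = 6.34e-08), and Zfp57 138 and 119 against 1587 and 1705 (3.24 ± 0.17, limma adjusted p = 1.69e-08). Gnas was 19.3 and 14.6 against 141 and 140.0, Sgce 0 and 0.793 against 3.62 and 4.80, and Inpp5f 1.34 and 1.41 against 8.42 and 7.53. Sgce and Peg3 passed the filter on low values only through knockout libraries, where they were high. Slc22a3 passed it only through knockout oocytes, control zygotes and knockout 48 h embryos. Airn, at 0.284 and 0 against 4.44 and 1.91, was higher while its overlapping partner Igf2r was lower. Peg3 was 0.528 and 0.329 against 1.18 and 1.41 (0.25 ± 0.18, limma adjusted p = 0.00475), with an adjusted p of 0.106 without control replicate 2. Trappc9, Tssc4 and Zim1 also lost their calls when 1 library was left out. None of these 4 was called by the test of the relative change, with limma adjusted p = 0.224 for Peg3, 0.0603 for Trappc9, 0.22 for Tssc4 and 0.814 for Zim1. Zim1 changed by 0.05 ± 0.19, limma adjusted p = 0.0339, and its direction relative to the median turned without control replicate 1 or knockout replicate 2. Not called were Zrsr1, at 3.09 and 2.76 against 0.900 and 2.86 (lower by the test of the relative change, limma adjusted p = 0.0246), Snurf, at 5.65 and 4.60 against 5.71 and 5.49, and Grb10, at 1.30 and 0.804 against 1.66 and 1.70. The median change was -4.55 for 6 tested markers of the 2-cell stage and 4.68 for 16 oocyte markers, beside 0 for all genes, which was 0.43 before it was set to 0. The difference between the 48 h and the zygote effect passed for 24 of the 31 genes, against 66.2% of all genes tested, and for 22 by the test of the relative change.

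In 8-cell embryos after spindle transfer none of the 26 genes tested rose or fell, and 0.0% of all genes tested did. In limma 8 of the 26, and 13.2% of all genes, had an unadjusted p under 0.05. Of the 20 paternally expressed genes 1 was listed at 0 in all 4 libraries, and in the other 19 both values under the knockout label lay above both controls in 10 and below both in 0, while among all symbols with a value these shares were 16.1% and 21.2%. Of the 15 maternally expressed genes with a value, 1 lay above and 1 below. The genes are not independent of each other, since Snurf was 5.94% of Snrpn in all 4 libraries and the pair shares reads. Of the genes tested, Ndn, Mest and Usp29 passed the filter on low values only through values under the knockout label, and Ndn is 1 of the 8 genes with an unadjusted p under 0.05.

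Mcts2 was 56.4 and 44.5 FPKM under the control label and 127 and 152 under the knockout label (1.53 ± 0.22, limma adjusted p = 0.127), and it passed when control replicate 1 was left out (adjusted p = 0.0421), together with Cd81. That fit had 1 control library, so its residual spread came from the knockout pair alone and the lone control was assumed to vary alike. Snrpn was 181 and 234 against 268 and 418 (0.77 ± 0.25, limma adjusted p = 0.328). Impact was 41.6 and 61.7 against 75.7 and 113 (0.93 ± 0.28, limma adjusted p = 0.312). In all 3 genes both knockout values exceeded both controls, and for Mcts2 the gap was also wider than the spread within either group. The host gene H13 was 9.64 and 17.5 against 9.37 and 12.7 FPKM and the parent gene Mcts1 41.0 to 132 against 56.0 to 98.2, and both overlapped between labels.

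Snurf, which shares reads with Snrpn, was 10.8 and 13.9 FPKM under the control label and 15.9 and 24.8 under the knockout label. The other paternally expressed genes without overlap were under 3 FPKM in all 4 libraries. Ndn, a growth-restraining protein of the Snrpn domain, was 0.327 and 0 FPKM under the control label and 1.47 and 1.84 under the knockout label (limma adjusted p = 0.302), Mest 0.652 and 0.835 against 1.28 and 2.45 (0.76 ± 0.40, limma adjusted p = 0.495), and Usp29 0.899 and 0.574 against 1.26 and 1.23. Plagl1, a zinc finger regulator of growth, was 0 and 0.109 against 0.394 and 0.848, Nnat 0 and 0 against 0.573 and 0.319, and Kcnq1ot1 0.0869 and 0.232 against 0.455 and 0.645. Plagl1, Nnat and Kcnq1ot1 were too low to be tested. Overlap was seen for Zrsr1, at 2.54 and 1.80 against 2.41 and 4.52 (0.54 ± 0.41, limma adjusted p = 0.663), for Sgce, at 4.68 and 8.51 against 6.22 and 5.55 (-0.02 ± 0.38, limma adjusted p = 0.945), and for Peg3, at 0.659 and 0.432 against 0.484 and 0.576. The direction of Sgce turned under quantile normalization and without control replicate 2 or knockout replicate 2.

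**Figure D4:**
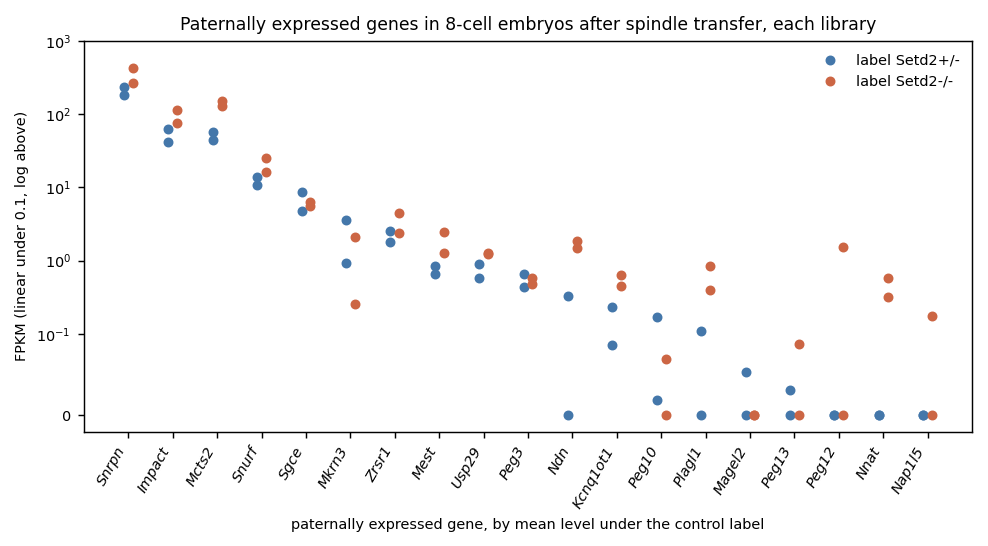
FPKM of the 19 paternally expressed genes with a value above 0 in 8-cell embryos after spindle transfer (y axis linear under 0.1 and logarithmic above), 1 point per library, blue for the label Setd2+/- and red for Setd2-/-. Both red points lie above both blue points in 10 of the 19, from Snrpn at up to 418 FPKM to Nnat at up to 0.573.

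Genes at control regions with other expression varied in 8-cell embryos. Igf2r was 15.2 and 19.2 FPKM under the control label and 35.5 and 25.9 under the knockout label (0.86 ± 0.28, limma adjusted p = 0.324), Inpp5f 2.19 and 2.62 against 6.29 and 5.12 (1.05 ± 0.36, limma adjusted p = 0.333), and Gnas 42.3 and 59.2 against 43.5 and 38.8 (-0.20 ± 0.25, limma adjusted p = 0.662), whose direction turned without control replicate 2. Igf2r and Inpp5f were higher without overlap, and Airn was listed at 0 in all 4 libraries. Tssc4 was 14.1 and 16.8 against 5.83 and 9.99 (limma adjusted p = 0.334) and Zfp57 9.28 and 7.99 against 3.75 and 5.06 (limma adjusted p = 0.363), both lower without overlap. Grb10 was 0.315 and 0.989 against 1.11 and 0.681, with overlap. Other RNAs differed between the labels as well. Zp3 was 20.9 and 20.9 against 46.0 and 53.7 FPKM, and Dnmt3l 23.5 and 35.9 against 56.7 and 80.1 (limma adjusted p = 0.229). Of 12 markers of the 8-cell embryo and blastocyst 10 were tested and none was called, with a median change of 0.038 and a summed level of 747 and 709 against 698 and 613 FPKM. The summed level of 6 markers of the 2-cell stage was 19.02 and 338 FPKM under the control label and 29.2 and 11.3 under the knockout label, so control replicate 2 stood apart. The part of developmental stage in the levels of the imprinted genes was not tested.

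**Figure D5:**
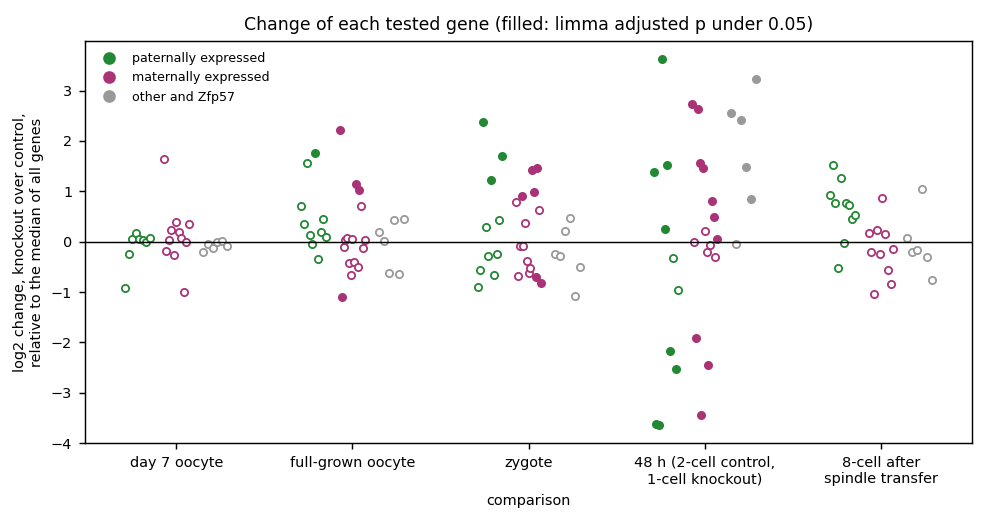
Change of each gene tested in the 5 comparisons of knockout with control (y axis, log2 scale relative to the median of all genes), green for paternally expressed, purple for maternally expressed and grey for other genes and Zfp57, filled where the adjusted p was under 0.05. Filled points run from -3.64 to 3.63 at 48 h, and no point is filled in day 7 oocytes or in 8-cell embryos.

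In the Dnmt3l pair 27 of the 46 genes reached 1 FPKM in the higher library, and 2 differed by 2-fold or more on the scale of FPKM + 1, both lower in the library labelled knockout, while among all genes 0.906% were that much higher and 1.04% lower. Without replicates these values have no error and no test. Dnmt3l itself was 31.7 FPKM in the control and 25.0 in the library labelled knockout, so its RNA did not separate the libraries, and which exons were deleted is not given in the sources used here. Snurf was 1.75 in the control and 0.000961 in the other library, while Snrpn, with which it shares reads, went the other way, from 3.07 to 6.44. Cd81 was 6.22 and 2.30. Of the 16 granulosa cell markers, 7 reached 1 FPKM in the higher library. Among these 5 were lower in the library labelled knockout, such as Inha at 22.1 and 1.63 FPKM, and 2 were higher, Cyp19a1 at 16.0 and 22.1 and Nr5a2 at 3.88 and 5.91. The summed level of the 16 was 86.4 and 32.1, and their part in the difference of Cd81 was not tested. Of the 27 genes 13 were higher and 14 lower, with a median difference of -0.02 beside 0.00 for all genes.

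Genes that rose in Setd2 knockout oocytes differed by less than 2-fold in this pair. Asb4 was 4.45 FPKM in the control and 4.83 in the library labelled knockout, Phlda2 18.8 and 25.9, Sgce 0.445 and 0.716, and Slc22a3 1.14 and 0.811. In the Setd2 controls, normalized separately, Asb4 was 3.02 and 4.34, Phlda2 30.0 and 34.9, Sgce 0.794 and 0.918, and Slc22a3 0.234 and 0.206. The comparisons thus did not start from the same levels. Mcts2 was 1.86 and 1.05, Mest 111 and 149, Impact 3.29 and 3.70, and Gnas 60.1 and 62.4. Igf2r was 6.84 and 7.26, Airn 2.50 and 2.45, Inpp5f 6.98 and 4.99, and Grb10 1.63 and 1.68. The remaining genes at control regions were under 1 FPKM in both libraries.

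The genes that set imprints were followed as a list of 14, which includes Setd2 itself. In Setd2 knockout full-grown oocytes 0 of the 14 rose and 2 fell, beside 2.02% and 4.89% of all genes. These were Setd2 and Dnmt1, the maintenance methyltransferase, which was 111 and 149 FPKM in controls and 55.2 and 73.9 in the knockout (-0.81 ± 0.24, limma adjusted p = 0.0368). Dnmt1 was not called by the test of the relative change (limma adjusted p = 0.0843). Dnmt3l was 107 and 118 against 78.7 and 97.7 (limma adjusted p = 0.385). In zygotes, where 18.5% of all genes rose and 13.1% fell, 1 of the 14 rose, the methyltransferase gene Dnmt3b, and 5 fell, namely Setd2, Dnmt3a, the demethylase gene Kdm1a, the histone methyltransferase gene Nsd1 and the remodeller gene Hells. Dnmt3a was 39.5 and 22.1 FPKM in control zygotes and 13.7 and 15.1 in the knockout (-1.01 ± 0.27, limma adjusted p = 0.0187). At 48 h, where 43.2% of all genes rose and 30.6% fell, 7 rose and 4 fell (5 and 7 by the test of the relative change), and Dnmt3l was 9.52 and 9.61 against 78.5 and 69.4 (2.39 ± 0.24, limma adjusted p = 1.05e-06). In day 7 oocytes, where Dnmt3l was listed at 0 in all 4 libraries, and in 8-cell embryos none rose or fell.

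Of 27 tested genes that protect or erase imprints, 0 rose and 3 fell in Setd2 knockout full-grown oocytes, beside 2.02% and 4.89% of all genes. The 3 were Dnmt1, the chromatin remodeller gene Atrx and Khdc3, a member of a maternal protein complex. None of these 3 was called by the test of the relative change (limma adjusted p = 0.0649 to 0.128), by which Dppa3, a maternal protein that guards methylation in the zygote, rose (limma adjusted p = 0.0363). In zygotes 6 of the 27 rose and 3 fell, near the shares of all genes (18.5% and 13.1%). Zfp445, a zinc finger protein that acts beside ZFP57, was 3.73 and 2.14 FPKM in controls and 0.577 and 0.612 in the knockout (-1.29 ± 0.23, limma adjusted p = 0.00242), with Arid4a and Ezh2 also lower and Tet2, Cbx3, Ehmt2, Daxx, Nlrp2 and Khdc3 higher. Zfp57 was 2111 and 2396 against 1729 and 1505 in zygotes and did not pass (limma adjusted p = 0.0582). At 48 h 13 rose and 9 fell, beside 43.2% and 30.6% of all genes (13 and 13 by the test of the relative change), and in day 7 oocytes and 8-cell embryos none did. Of 3 tested genes imprinted by methylation from sperm, none rose or fell in full-grown oocytes or zygotes. Meg3 and Gpr1 were higher at 48 h, where Gpr1 was 1.18 and 2.03 FPKM in controls and 211 and 207 in the knockout (5.92 ± 0.31, limma adjusted p = 1.84e-08).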

How the data were processed

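The authors deposited FPKM tables of gene symbols, made from Smart-seq2 libraries, using, per the submitters' processing notes, the mouse build mm9, Cufflinks 2.0.2 and TopHat2 2.0.11, whose role and order are not given. The 22 libraries were grouped by the genotype and stage in the labels. Here log2(FPKM + 1) was tested with limma 3.58.1 (R 4.3.3) with a variance trend, within each table because tables were normalized separately. The 12 libraries of full-grown oocytes, zygotes and 48 h embryos were fitted together, and P values were adjusted by Benjamini-Hochberg over all genes. Scripts were tested on simulated data. Tables and figures were made with Python 3.11.15. Intervals for depth are not given because depth was only estimated.

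The members and lists were chosen with earlier results of these data known. Genes were named by a rule: Setd2 and Dnmt3l, all members called, members at a control region and called genes of the imprint lists. Other genes named were chosen after their values were seen. Replicate numbers were not taken to pair libraries. The alternatives were a pseudocount of 0.1, no filter, a filter at 5 FPKM, no variance trend, median-ratio rescaling, quantile normalization, a replicate block, a fit of only the compared groups and leaving out each library. A test of the change relative to the median of all genes, with the same standard errors and degrees of freedom, was chosen after seeing the data.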

Additional observations from a re-analysis of the deposited data

Results flagged for a closer look

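Each gene here had a knockout effect that differed between 2 stages by a test of the difference itself (limma, adjusted over all genes), on the log2 scale relative to the median of all genes tested. Between zygotes and full-grown oocytes, zygote minus oocyte, the differences were -1.73 for Slc22a3, 1.48 for Slc22a18 and 1.62 for Zrsr1, and 9.39% of all genes passed the same test. Zrsr1 was not called by a test of the change relative to that median (adjusted p = 0.0667). Slc22a3 and Slc22a18 passed the filter on low values only through groups where they were high.

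Between 48 h and zygotes, 48 h minus zygote, 66.2% of all genes passed, and the 48 h groups differ in cell number as well as genotype. Lower at 48 h were Mcts2 (-5.97), Phlda2 (-3.82), Igf2r (-3.75), Impact (-3.00), Usp29 (-2.90), Zrsr1 (-2.62), Cdkn1c (-1.77) and Snrpn (-1.47). Higher with the greatest differences were Zfp57 (3.78), Mest (3.39), Gnas (2.86), Airn (2.33), H13 (2.25) and Asb4 (2.00). The other higher differences were Trappc9 (1.98), Kcnq1 (1.89), Commd1 (1.78), Copg2 (1.71), Slc22a3 (1.58), Inpp5f (1.08), Zim1 (0.925), Nap1l4 (0.883), Peg3 (0.585) and Osbpl5 (0.363). Peg3 passed the filter on low values only through knockout 48 h embryos, Zim1 only through control zygotes, and Osbpl5 only through control oocytes and control zygotes. Slc22a3 passed it only through knockout oocytes, control zygotes and knockout 48 h embryos. Without at least 1 library the calls of Snrpn, Cdkn1c, Nap1l4, Osbpl5 and Peg3 were lost, and the last 3 of these were not called by the test of the relative change either (adjusted p = 0.0851, 0.282 and 0.0622).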

How the results depend on the processing

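Counts of imprinted genes called were within 1.5 times of the reported count except as follows. In full-grown oocytes the 5 calls became 3 with a pseudocount of 0.1, 3 without a filter, 2 with a filter at 5 FPKM, 2 with the replicate block, 8 when only the compared groups were fitted, and 0 to 1 when 1 library was left out. The 9 calls in zygotes became 5 with a filter at 5 FPKM. The 3 differences between zygote and oocyte effects became 1 without a filter, 1 with a filter at 5 FPKM and 1 to 6 when 1 library was left out. In 8-cell embryos the 0 calls became 0 to 2 when 1 library was left out. In the Dnmt3l pair the 2 genes past 2-fold became 4 with a pseudocount of 0.1 and 0 with a minimum of 10 FPKM. With the replicate number as a block, 1 gene (Ascl2) was called in day 7 oocytes against 0, and the counts were 10 in zygotes, 24 at 48 h and 0 in 8-cell embryos. Libraries share only a number, with correlations of same-numbered deviations of 0.0024 to 0.19 over 2 pairs in each comparison. By the test of the change relative to the median of all genes, chosen after seeing the data, full-grown oocytes had 4 calls, zygotes 10 and 48 h embryos 20. The counts were 11 from oocyte to zygote, 25 from zygote to 2-cell embryo, and 3 and 22 for the differences between effects. Over all genes, the 844 calls in full-grown oocytes became 489 with a pseudocount of 0.1, 500 without a filter and 2787 when only the compared groups were fitted, and the 9 in day 7 oocytes became 129 with the block. Apart from changes that follow from fewer genes or libraries, the cause was not tested.

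Of the values of single genes, 6 turned: Zim1 at 48 h to -0.26 without control replicate 1 and -0.00485 without knockout replicate 2 (range with 1 library left out -0.26 to 0.18), and in 8-cell embryos Sgce to 0.0051 under quantile normalization, 0.36 without control replicate 2 and 0.040 without knockout replicate 2 (range -0.39 to 0.36), and Gnas to 0.044 without control replicate 2 (range -0.44 to 0.044). Otherwise 871 values kept direction and call, 44 lost and 1 gained a call under other settings, and 445, 77 and 1 when a library was left out. Genes that a filter removed have no value there. Uncalled genes at control regions, given as levels only, changed sign in some alternative in 4 of 9 in day 7 oocytes, 5 of 11 in full-grown oocytes, 2 of 10 in zygotes and 2 of 3 at 48 h, and 2 (Snurf and Airn) were called in some alternative in zygotes and 1 (Zrsr1) at 48 h. Depth limits values under 1 FPKM, above all in zygotes.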
